A study of Homo sapiens with 4 samples.

Results

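The human genes that encode histones were examined in 1 single-cell transcriptome library of ectoderm cells and 1 of human pluripotent stem cells (hPSC). Members were all features named as H1, H2AC, H2BC, H3C or H4C genes with a number, together with H2AZ1, H2AZ2, H2AX, H3-3A, H3-3B and MACROH2A1, which gave 76 of 60674 features. Of these, 65 are replication-linked genes (5 of H1, 16 of H2A, 17 of H2B, 13 of H3 and 14 of H4). A further 8 are replacement or variant genes and 3 are germline linker genes (H1-6, H1-7 and H1-8).

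Both libraries came from a pooled CRISPR knockout screen. All cells carried a lentiviral construct with a guide RNA, EGFP under the EF1α promoter and a random barcode, together with Cas9 and mCherry from another lentivirus. They were grown on for 1 week after a sort on fluorescent protein. The ectoderm group was then induced towards ectoderm, and the hPSC group was titled as the undifferentiated stage, although the protocol text of the labels mentions the induction for every sample. Cells in each library thus carry guides against many different target genes. Of the cells to which a guide could be assigned, only a minority carry a non-targeting one. An amplicon library per group ties cell barcodes to guides. The labels name H9, an established hPSC line, for all samples, but 2 of 2 transcriptome libraries did not match it when expression was compared with the label, so the identity of the line is unsettled.

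The ectoderm library held 16360 cells and 91249888 UMIs, and the hPSC library 15326 kept cells and 83246015 UMIs, with medians of 4499 and 4808 UMIs per cell. A UMI (unique molecular identifier) stands for 1 captured RNA molecule, and CPM are UMIs scaled to a common library total. Only 78 cell barcodes occurred in both libraries (0.477% of ectoderm and 0.509% of hPSC barcodes). Markers of neural ectoderm progenitors summed to 2083 CPM in ectoderm and 548 CPM in hPSC, with 10 and 5 of 11 markers at 5 CPM or more. Pluripotency markers summed to 3727 CPM in ectoderm and 3985 CPM in hPSC, with 10 of 10 at 5 CPM or more in each, so as a list they were nearly as high in the labelled ectoderm. SOX2 is a member of both lists, so its UMIs are part of both sums. Endoderm markers summed to 52.5 CPM in ectoderm and 8.96 CPM in hPSC, with 1 of 5 at 5 CPM or more in each. Amnion markers summed to 98.6 CPM in ectoderm and 54.2 CPM in hPSC (2 of 5 in each), and surface ectoderm markers to 18.1 CPM in ectoderm and 13.7 CPM in hPSC (1 of 5 in each). Lower in ectoderm were markers of neurons, with 80.6 CPM in ectoderm and 147.5 CPM in hPSC (3 of 8 in each), of mesoderm, with 10.8 CPM in ectoderm and 34.3 CPM in hPSC (0 and 1 of 6), and of neural crest, with 6.63 CPM in ectoderm and 12.4 CPM in hPSC (1 of 5 in each). The part of these lists in the differences between libraries was not tested. With 1 library per group, cell stage and library cannot be told apart, and no test was made. Intervals in the text are 95% counting intervals and cover counting error only.

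Replication-linked histone genes are expressed mainly in S phase, when new DNA is packed into nucleosomes, and stand in clusters in which H1, H2A, H2B, H3 and H4 genes lie side by side. Their mRNAs usually end not in a poly(A) tail but in a conserved stem-loop, which the stem-loop binding protein SLBP holds and behind which the mRNA is cut by a complex guided by the U7 small nuclear RNP. Variant and replacement genes, such as those of H2A.Z, of the H3 form used outside S phase and of the linker histone H1-10, make polyadenylated mRNA throughout the cell cycle, and H2AX mRNA is known in both forms. These libraries were made from poly(A) RNA, so a replication-linked transcript is counted only where it carries a tail or an internal run of A that the primer can hold. The values below therefore describe the captured RNA and not the whole pool of histone mRNA.

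The histone stem-loop is shown first because it marks the end of a replication-linked mRNA, and RNA that runs past it is the kind that a poly(A)-primed library could hold. A stem-loop was found in the annotated transcripts of 28 of the 63 replication-linked genes that have an entry in GENCODE v29, and in those of H2AX. Over all 58676 genes of that annotation 134 (0.228%) held the motif, which was searched on the transcript strand. It is shown for the 7 members at 5 CPM or more that hold it, read from the GENCODE v29 transcripts on GRCh38. The sequences run 5′ to 3′ on the gene's strand, the 16 capitals mark the stem-loop, the coordinates are those of the capitals, and 5 bases follow on each side.
H2AC6: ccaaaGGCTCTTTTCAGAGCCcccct
H2BC9: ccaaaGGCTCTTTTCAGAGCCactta
H2AC11: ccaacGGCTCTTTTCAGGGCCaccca
H3C8: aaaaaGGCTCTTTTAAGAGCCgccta
H4C5: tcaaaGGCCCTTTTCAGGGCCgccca
H4C8: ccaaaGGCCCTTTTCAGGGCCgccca
H2AX: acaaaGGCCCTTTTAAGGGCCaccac
They lie at chr6:26124669-26124684 on the plus strand for H2AC6, chr6:26252055-26252070 (plus) for H2BC9, chr6:27133515-27133530 (plus) for H2AC11 and chr6:26270923-26270938 (minus) for H3C8. The others lie at chr6:26205001-26205016 (plus) for H4C5, chr6:26285131-26285146 (minus) for H4C8 and chr11:119094898-119094913 (minus) for H2AX. The stem-loop letters were the same in H2AC6 and H2BC9, and the same in H4C5 and H4C8. In all 7 genes the annotation continues past the loop, by 1022 bases in H4C5 to 1761 bases in H2AC11, and by 1044 bases in H2AX.

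Captured RNA was spread very unevenly over the members. The members together made up 0.740% of UMIs in ectoderm and 0.628% in hPSC. Of the 76 members, 13 reached 20 CPM in at least 1 library and 23 reached 5 CPM, namely all 8 variant genes and 15 replication-linked genes. Another 30 replication-linked genes stood between 1 and 5 CPM and 20 below 1 CPM. No UMI was counted in either library for H3C14, H3C15, H2AC18, H2BC1, H4C7 and the germline linker gene H1-7, where 3 counts, the limit that a count of 0 allows, are 0.0329 CPM in ectoderm and 0.0360 CPM in the hPSC library. The germline linker genes summed to 0.208 CPM in ectoderm and 0.252 CPM in hPSC.

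H4C3, an H4 gene at chr6:26103876-26104310 (plus strand, GRCh38), held the largest share of the replication-linked UMIs. It supplied 57.3% of them in ectoderm and 48.5% in hPSC. H1-3 came next, with 7.68% of the replication-linked UMIs in ectoderm and 9.81% in hPSC, followed by H1-5, H1-4, H1-2 and H3C2. Because these are 3′ UMI counts that are not scaled by length and depend on where a primer can bind, they do not rank the genes by their mRNA amounts.

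What the well-captured genes share in sequence was described after their values were seen. Of the 63 replication-linked genes with a GENCODE v29 entry, 20 have a stem-loop with at least 100 annotated bases after it. Of these, 6 reached 5 CPM, and their median was 2.55 CPM over both libraries. Among 8 genes with a loop and fewer than 100 bases after it, 0 reached 5 CPM and the median was 0.931 CPM. Among 35 genes with no match, which include H4C3 and the H1 genes, 8 reached 5 CPM and the median was 1.82 CPM. No match says only that the motif is not in the annotated stretch.

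Sequence shared with another gene also goes with low counts. In 14 of the 63 genes over 50% of the 90-base stretches also occur in another gene, and how the authors' counting treated such reads is not stated. Not all are copies: H3C4, H2AC7 and H2AC17 share these stretches with a gene that overlaps them on the same strand. Of these 14 genes, 0 reached 5 CPM and 12 were below 1 CPM, so their values are uncertain. In the other 49 genes, the largest number of A in any 15 bases of the transcript ran along with the mean CPM (Spearman's rho 0.46 across genes, which are not independent replicates). Of 14 genes with a stretch of 11 or more A in 15 bases, 7 reached 5 CPM, with a median of 4.98 CPM. Of 20 genes with at most 8 A, 0 did, with a median of 1.57 CPM. Annotated transcript length had the same correlation with CPM (0.46) and a correlation of 0.76 with the A count, so length and A content cannot be told apart here.

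**Figure D1:**
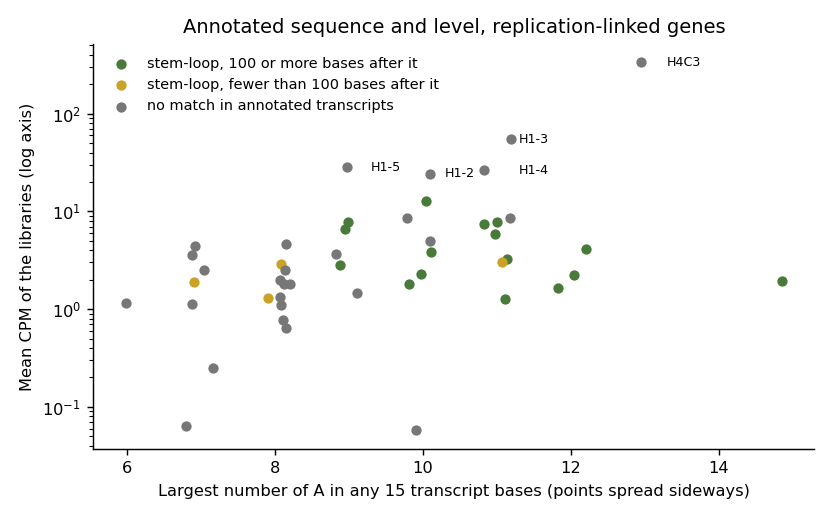
Mean CPM of the ectoderm and hPSC libraries (log axis) against the largest number of A in any 15 transcript bases, for replication-linked genes with under 50% shared sequence, 1 point per gene, genes with no UMI not drawn. Colours give the annotated stem-loop. The gene farthest up is H4C3, with 13 A in 15 bases, and no gene with 8 or fewer A reached 5 CPM.

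Short motifs that the choice of genes had not used were common in promoters of the replication-linked genes. The promoters are RefSeq windows on GRCh38.p14 from 250 bases before to 50 bases after the gene start, and 60 replication-linked and 7 variant genes had one. Windows of genes that lie back to back can overlap, as those of H2BC21 and H2AC20 do. H3C4 and H2AC7 have the same window, and those of H4C14 and H4C15 hold the same letters. A match can thus count for more than 1 gene, and the 60 windows are not independent. The letters CCAAT (or ATTGG on the other strand), a box bound by NF-Y, occurred in 51 of the 60 replication-linked promoters (85.0%) and in 35.7% of all 27305 promoters. All replication-linked promoters without it were those of H4 genes (H4C2, H4C4, H4C5, H4C7, H4C8, H4C11, H4C12, H4C14 and H4C15). The other H4 genes with a promoter, H4C6, H4C9 and H4C13, held 1 match each. The letters TATAAA (or TTTATA), a form of the TATA box, occurred in 41 of the 60 (68.3%) and in 12.0% of all promoters. Among variant genes, 5 of 7 promoters held CCAAT and 4 of 7 held TATAAA. H4C3 had no entry in the table.

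The promoters of 3 genes are shown, chosen after their values were seen. H1-3 stands for the H1 genes, which were all lower in ectoderm. H2AC20 is a gene of the chromosome 1 cluster that was higher in ectoderm, and H1-10 had the largest ratio among members at 5 CPM or more. Capitals mark the matches on either strand, each window runs 5′ to 3′ on the gene's strand, and the matches are letters only, with no statement on binding. The windows are chr6:26234938-26235237 (minus) for H1-3, chr1:149886668-149886967 (plus) for H2AC20 and chr3:129316237-129316536 (minus) for H1-10.
H1-3: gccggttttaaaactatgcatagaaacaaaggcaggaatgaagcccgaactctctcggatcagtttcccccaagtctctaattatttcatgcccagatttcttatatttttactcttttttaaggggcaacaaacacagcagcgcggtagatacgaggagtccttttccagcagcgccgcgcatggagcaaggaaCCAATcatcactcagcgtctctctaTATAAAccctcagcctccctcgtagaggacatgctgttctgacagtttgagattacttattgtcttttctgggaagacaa
H2AC20: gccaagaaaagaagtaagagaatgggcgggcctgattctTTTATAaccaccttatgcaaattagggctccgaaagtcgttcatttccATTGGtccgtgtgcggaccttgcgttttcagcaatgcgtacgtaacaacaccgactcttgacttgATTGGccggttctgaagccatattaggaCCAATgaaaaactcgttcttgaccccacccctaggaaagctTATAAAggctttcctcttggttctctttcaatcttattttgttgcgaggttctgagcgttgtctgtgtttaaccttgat
H1-10: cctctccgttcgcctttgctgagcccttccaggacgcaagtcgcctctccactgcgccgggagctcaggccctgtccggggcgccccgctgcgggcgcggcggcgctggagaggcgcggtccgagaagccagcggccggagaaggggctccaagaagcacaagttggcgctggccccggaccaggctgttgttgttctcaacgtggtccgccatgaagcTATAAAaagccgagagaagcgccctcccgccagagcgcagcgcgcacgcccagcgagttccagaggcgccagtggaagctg
The H1-3 window held 1 CCAAT and 1 TATAAA match, the H2AC20 window 3 and 2, and the H1-10 window 0 and 1.

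The first comparison set the ectoderm library against the hPSC library. As a sum, variant histone genes had more captured RNA in ectoderm, and the replacement linker gene H1-10 stood just under 2-fold, whereas the replication-linked H1 genes were lower in ectoderm and H4C3 was higher. The 8 variant genes summed to 6743 CPM in ectoderm and 5671 CPM in hPSC, a log2 ratio of 0.25 (0.24 to 0.26). The 65 replication-linked genes summed to 652 CPM in ectoderm and 609 CPM in hPSC, a log2 ratio of 0.10 (0.08 to 0.12). Without H4C3 the other 64 summed to 279 CPM in ectoderm and 314 CPM in hPSC, so the ratio turned to -0.17 (-0.20 to -0.15), and H4C3 alone set the direction of the sum.

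By the rule of size, at least 20 CPM in 1 library and at least a 2-fold difference, 0 of 13 members were higher in ectoderm and 0 were lower. The background was 3.25% of 6250 genes higher and 4.03% lower. Among the 23 members at 5 CPM or more, the counting interval of the log2 ratio lay wholly above 0 for 9 and wholly below 0 for 9. Over all 10771 genes at that level the shares were 40.6% and 43.0%, so the members' counts were near the background. The median log2 ratio was 0.42 for the 8 variant genes and -0.18 for the 15 replication-linked genes, beside -0.02 for all genes at 5 CPM or more.

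**Figure D2:**
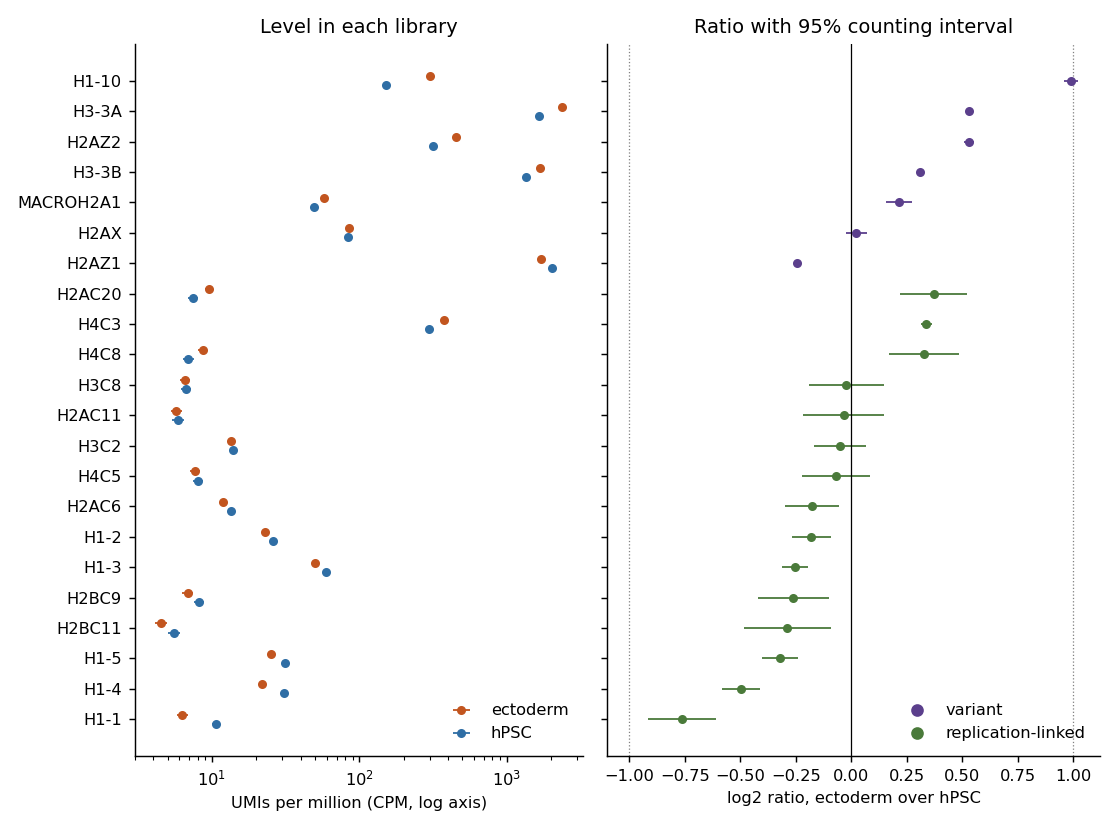
Level of 22 of the 23 members at 5 CPM or more in ectoderm and hPSC (left, CPM on a log axis, 1 library each) and the log2 ratio of ectoderm over hPSC (right), with bars for 95% counting intervals and dotted lines at a 2-fold difference. Variant genes run from H1-10 at 0.99 to H2AZ1 at -0.24, and replication-linked genes from H2AC20 at 0.37 to H1-1 at -0.76.

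Among linker histones, which bind the DNA that enters and leaves the nucleosome, H1-10, a replacement gene, and the replication-linked genes went opposite ways. H1-10 (chr3:129314771-129316277, minus) had 299 CPM in ectoderm and 151 CPM in hPSC, a log2 ratio of 0.99 (0.96 to 1.02). H1-10 lies just under the 2-fold limit and passed it under 4 of the other scalings and cell averages, at 1.01 to 1.03. H1-10 overlaps the antisense gene H1-10-AS1, which had 211 UMIs in ectoderm and 125 UMIs in hPSC, and whether counting used strand is not stated.

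All 5 replication-linked H1 genes were lower in ectoderm over the whole libraries, with the whole counting interval below 0. Over all 10771 genes at 5 CPM or more, 43.0% had such an interval. They summed to 126 CPM in ectoderm and 159 CPM in hPSC, a log2 ratio of -0.33 (-0.37 to -0.29). H1-1 had 6.30 CPM in ectoderm and 10.7 CPM in hPSC (-0.76), and H1-4 had 22.0 CPM in ectoderm and 31.0 CPM in hPSC (-0.50). H1-5 had 25.1 CPM in ectoderm and 31.4 CPM in hPSC (-0.32). H1-3 had 50.1 CPM in ectoderm and 59.8 CPM in hPSC (-0.26), and H1-2 had 22.8 CPM in ectoderm and 25.8 CPM in hPSC (-0.18). H1-6, the germline linker gene made in testis, had 18 UMIs in ectoderm and 20 UMIs in hPSC.

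Among core histone variants, the H3 replacement genes were higher in ectoderm and the H2A.Z genes went opposite ways. H3-3A, which encodes the same protein as H3-3B, had 2387 CPM in ectoderm and 1653 CPM in hPSC (log2 ratio 0.53). H3-3B had 1676 CPM in ectoderm and 1352 CPM in hPSC (0.31). H3-3A shares 10.6% of its 90-base stretches with other genes, among them processed pseudogenes, so some of its reads could be split. The pseudogene H3P6 had 26.1 CPM in ectoderm and 17.7 CPM in hPSC (0.56), in the same direction. H3-3B overlaps UNK on the other strand, which had 17.8 CPM in ectoderm and 13.1 CPM in hPSC. H3-3A, H2AZ1 and MACROH2A1 also overlap annotated genes on the other strand.

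H2AZ1 had 1715 CPM in ectoderm and 2032 CPM in hPSC (-0.24, -0.25 to -0.23). H2AZ2, whose protein differs from that of H2AZ1 in a few residues, had 453 CPM in ectoderm and 314 CPM in hPSC (0.53, 0.51 to 0.55). Together the H2A.Z genes had 2168 CPM in ectoderm and 2346 CPM in hPSC (-0.11). MACROH2A1, an H2A form with a large macro domain, had 57.5 CPM in ectoderm and 49.5 CPM in hPSC (0.22). H2AX, whose protein is phosphorylated around DNA breaks, had 84.7 CPM in ectoderm and 83.4 CPM in hPSC (0.02, -0.03 to 0.07), an interval that holds 0.

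Among the replication-linked core histones, H4C3 had 374 CPM in ectoderm and 296 CPM in hPSC, a log2 ratio of 0.34 (0.31 to 0.36). H4C8 had 8.67 CPM in ectoderm and 6.91 CPM in hPSC (0.33, 0.17 to 0.49). H2AC20 had 9.57 CPM in ectoderm and 7.40 CPM in hPSC (0.37, 0.22 to 0.52). These were the only replication-linked genes at 5 CPM or more with the interval above 0, and H2AC20 shares 19.9% of its 90-base stretches with other H2A genes. Of the other H2A genes, H2AC6 had 12.0 CPM in ectoderm and 13.5 CPM in hPSC (-0.18), and H2AC11 had 5.73 CPM in ectoderm and 5.87 CPM in hPSC (-0.04).

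Among H2B genes, H2BC9, with 6.83 CPM in ectoderm and 8.18 CPM in hPSC (-0.26), and H2BC11, with 4.53 CPM in ectoderm and 5.53 CPM in hPSC (-0.29), had the interval below 0. H3C2 had 13.5 CPM in ectoderm and 14.0 CPM in hPSC (-0.05), and H3C8 had 6.58 CPM in ectoderm and 6.68 CPM in hPSC (-0.02). H4C5 had 7.68 CPM in ectoderm and 8.06 CPM in hPSC (-0.07). Intervals of H2AC11, H3C2, H3C8 and H4C5 hold 0. As families, H2A genes differed by -0.01, H2B genes by -0.03 and H3 genes by -0.10, and H4 genes without H4C3 by 0.08 (-0.01 to 0.16).

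Genes of the chromosome 1 cluster and the chromosome 6 clusters were set apart after the values were seen. The 11 genes on chromosome 1 summed to 18.5 CPM in ectoderm and 13.7 CPM in hPSC (0.44, 0.33 to 0.55). The 53 genes on chromosome 6 other than H4C3 summed to 260 CPM in ectoderm and 300.1 CPM in hPSC (-0.20, -0.23 to -0.18). With H4C3 the 54 genes summed to 634 CPM in ectoderm and 596 CPM in hPSC, and the ratio turned to 0.09 (0.07 to 0.11). Of the genes with at least 10 UMIs in each library, 4 of 6 on chromosome 1 and 14 of 47 on chromosome 6 had a log2 ratio above 0, with medians of 0.39 and -0.11. Over all 20174 genes with as many UMIs the share above 0 was 47.9%, and 6 genes are too few to set chromosome 1 apart from it. Below 5 CPM, H2AC21 on chromosome 1 had 228 UMIs in ectoderm and 95 UMIs in hPSC (2.50 and 1.14 CPM, log2 ratio 1.13, 0.78 to 1.49). It overlaps BOLA1 on the other strand, which had 10.7 CPM in ectoderm and 13.6 CPM in hPSC, in the opposite direction.

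A single guide was assigned in 3686 ectoderm and 2915 hPSC cells, a minority of each library, and most of these guides had a target gene. The comparison was repeated in the 159 ectoderm and 212 hPSC cells that held a single non-targeting guide. There the 65 replication-linked genes summed to 701 CPM in ectoderm and 640 CPM in hPSC (0.13, -0.02 to 0.28), and without H4C3 the log2 ratio was -0.23 (-0.45 to -0.02). The variant sum was 7013 CPM in ectoderm and 5558 CPM in hPSC (0.34, 0.29 to 0.38). The H1 genes had a ratio of -0.40 (-0.73 to -0.09). H1-10 had 297 CPM in ectoderm and 162 CPM in hPSC (0.87, 0.61 to 1.14). The lower H2A.Z sum in ectoderm was not seen in these cells. It was 2294 CPM in ectoderm and 2281 CPM in hPSC (0.008, -0.07 to 0.09). H2AZ1 had a ratio of -0.11 (-0.19 to -0.02) and H2AZ2 one of 0.62 (0.41 to 0.82).

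The second comparison related the genes to PCNA and TOP2A within each library. PCNA, the sliding clamp of the replication fork, is highest around S phase, and TOP2A, the topoisomerase that untangles sister chromatids, in late S, G2 and M phase. PCNA had 103 CPM in ectoderm and 138 CPM in hPSC (log2 ratio -0.43), and TOP2A had 347 CPM in ectoderm and 309 CPM in hPSC (0.17). Each cell was thinned to 2500 UMIs, which left out 1196 ectoderm and 583 hPSC cells, and was classed by whether the thinned cell held a UMI of either gene. In ectoderm 9.85% of cells held both, 12.4% only PCNA, 37.1% only TOP2A and 40.7% neither. In hPSC the shares were 11.1%, 17.0%, 29.8% and 42.1%. Cells with no UMI of these genes at this depth are not cells without them. Ectoderm cells of the class with neither still held PCNA at 56.2 CPM and TOP2A at 142.5 CPM. Their hPSC counterparts held PCNA at 73.8 CPM and TOP2A at 105.7 CPM. The class that the ratios below are set over thus differed between libraries in both markers.

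Replication-linked RNA was higher in cells with only a PCNA UMI in both libraries, by small amounts. In ectoderm the 65 genes summed to 738 CPM in cells with both UMIs, 677 CPM in cells with PCNA only and 681 CPM in cells with TOP2A only, against 615 CPM in cells with neither. The log2 ratios over neither were 0.26 (0.22 to 0.30), 0.14 (0.10 to 0.18) and 0.15 (0.12 to 0.17). In hPSC they summed to 664 CPM with both, 717 CPM with PCNA only and 549 CPM with TOP2A only, against 610 CPM with neither. The log2 ratios were 0.12 (0.08 to 0.16), 0.23 (0.20 to 0.27) and -0.15 (-0.19 to -0.12). The difference between the libraries in the TOP2A-only ratio was not tested.

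The ratio of the PCNA-only class, or of the class put in its place, was above 0 under the 8 alternatives run. It lay at 0.13 to 0.57 in ectoderm and 0.21 to 0.64 in hPSC. The top of each range came from cells high in other S phase genes only, a class made without PCNA. Other hPSC values depended on how the classes were made. With classes called on all UMIs of a cell, where depth also sets the class, the TOP2A-only ratio turned to 0.22. With other S phase and other G2 and M phase genes in place of PCNA and TOP2A it was -0.47, and with at least 2 thinned UMIs it was -0.37. The ratio of hPSC cells with both UMIs turned to -0.03, -0.43 and -0.03 with thinning to 1500 UMIs, with at least 2 UMIs and with the other genes. Cells with a TOP2A UMI were deeper, with median totals of 5304 UMIs for TOP2A only and 4289 for neither in ectoderm, and 5692 and 4462 in hPSC, and the part of depth in the result was not tested beyond the thinning.

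**Figure D3:**
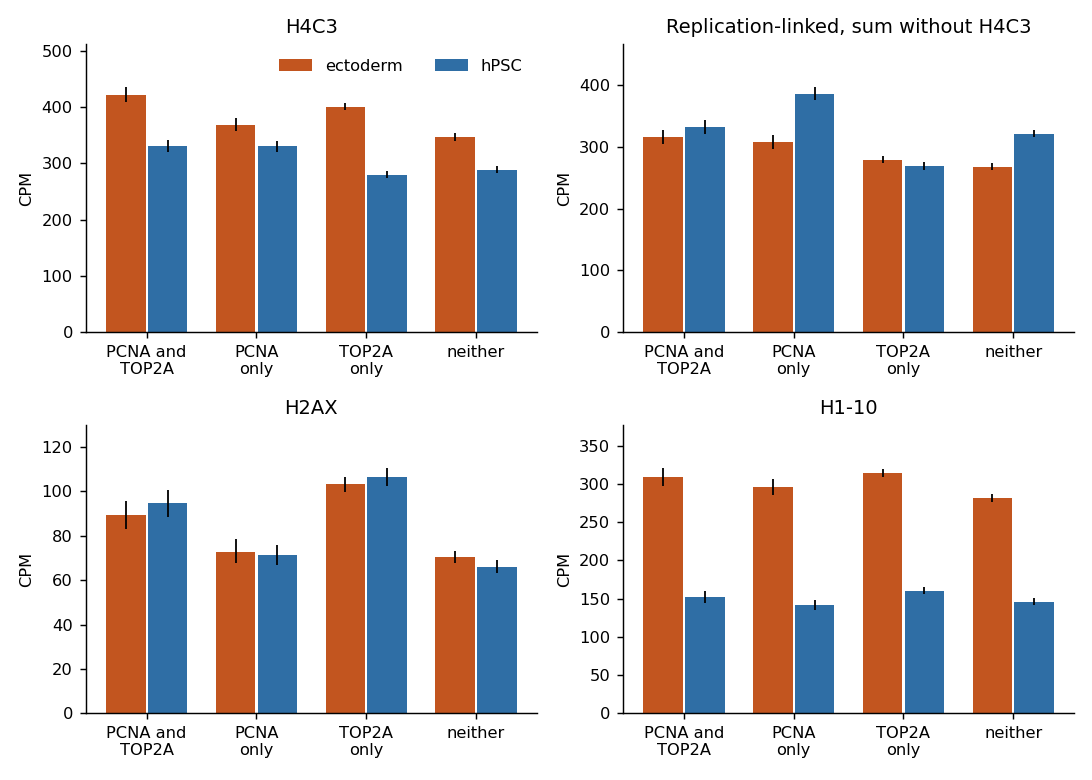
Level in CPM (bars from 0, 95% counting intervals) of H4C3, of the other 64 replication-linked genes, of H2AX and of H1-10 in the 4 classes of cells by PCNA and TOP2A UMIs, for ectoderm and hPSC. H2AX is highest in the TOP2A-only class (103 CPM in ectoderm, 106 CPM in hPSC). The H1-10 value is also highest there (314 CPM in ectoderm, 160.5 CPM in hPSC), but its interval overlaps that of cells with both UMIs in each library.

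The number of PCNA UMIs in the thinned cell sorted the replication-linked sum in the same order in both libraries, a view added after the values were seen. In ectoderm the sum was 649, 690, 792 and 797 CPM in cells with 0, 1, 2 and 3 PCNA UMIs, the last over 59 cells. In hPSC it was 582, 678, 757 and 818 CPM, the last over 96 cells. The intervals of the last 2 bins overlap in each library. With 0, 1, 2, 3 and 4 or more TOP2A UMIs the sum was 629, 713, 686, 674 and 587 CPM in ectoderm and 642, 648, 554, 424 and 375 CPM in hPSC. The hPSC cells with the most TOP2A UMIs thus had the lowest replication-linked level of any of these bins, and in ectoderm the spread between bins was smaller.

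**Figure D4:**
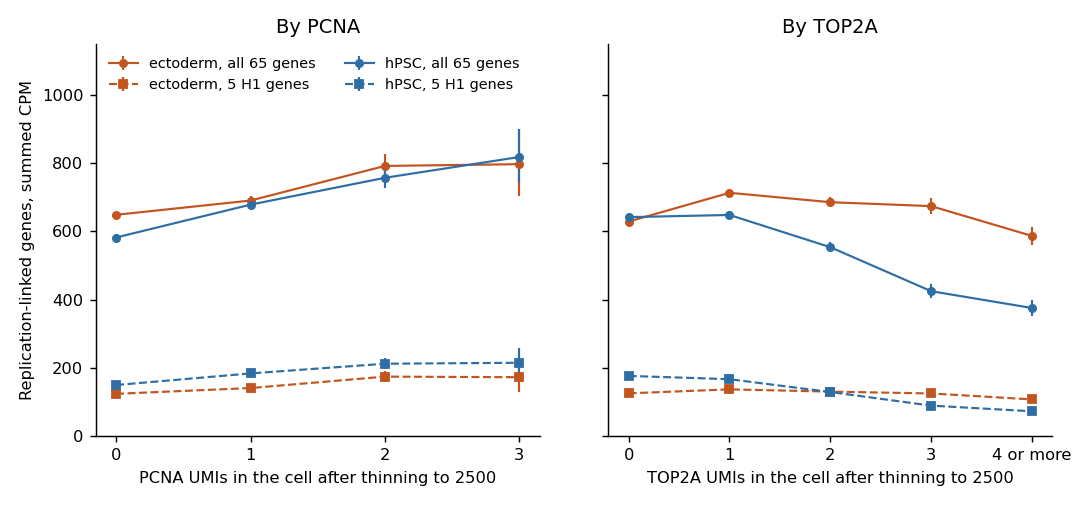
Summed CPM of the 65 replication-linked genes (solid) and of the 5 H1 genes (dashed) in cells grouped by thinned PCNA UMIs (left) and TOP2A UMIs (right), with 95% counting intervals, for ectoderm and hPSC. In hPSC the H1 sum is 176 CPM in cells with no TOP2A UMI and 71.9 CPM in cells with 4 or more, and in ectoderm it is 125 and 107 CPM.

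The replication-linked H1 genes stood lowest in TOP2A-only cells in hPSC, but not in ectoderm. The 5 H1 genes summed to 170 CPM with both UMIs, 202 CPM with PCNA only and 131 CPM with TOP2A only, against 165 CPM with neither in hPSC. In ectoderm they summed to 148, 143 and 127 CPM, against 119 CPM with neither. H1-3 stood at 46.5 CPM in TOP2A-only hPSC cells, against 63.5 CPM in hPSC cells with neither (log2 ratio -0.45), and at 48.0 CPM in TOP2A-only ectoderm cells, against 49.0 CPM with neither (-0.03). H1-2 had 21.9 CPM in TOP2A-only hPSC cells, against 27.5 CPM (-0.33), and 24.7 CPM in TOP2A-only ectoderm cells, against 19.9 CPM (0.31).

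H4C3, the largest part of the sum, is given apart. In ectoderm it had 422 CPM with both UMIs, 369 CPM with PCNA only and 401 CPM with TOP2A only, against 347 CPM with neither. In hPSC it had 331, 331 and 280 CPM, against 289 CPM with neither. The 15 replication-linked genes that reached 5 CPM in a whole library were then counted by class. In TOP2A-only cells 11 were above 0 in ectoderm and 4 in hPSC, with medians of 0.16 and -0.21. Over all genes at that level 53.1% were above 0 in ectoderm and 56.1% in hPSC, with medians of 0.01 and 0.02. In PCNA-only cells 13 of the 15 were above 0 in ectoderm and 15 in hPSC, with medians of 0.17 and 0.27. Over all genes 54.3% were above 0 in ectoderm and 54.2% in hPSC, with medians of 0.01 in each. H2AC6 was the lowest of the TOP2A-only class in both libraries, at -0.33 in ectoderm and -0.63 in hPSC.

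Variant genes as a sum hardly differed between classes. The log2 ratios of the sum over neither lay between -0.02 and 0.02 in ectoderm and between -0.03 and 0.03 in hPSC. H3-3A had ratios between -0.0077 and -0.00097 in ectoderm and between -0.013 and 0.019 in hPSC. The H2A.Z genes went opposite ways in TOP2A-only cells. H2AZ2 had 479 CPM in ectoderm, against 435 CPM with neither, and 334.9 CPM in hPSC, against 299.8 CPM with neither. H2AZ1 had 1688 CPM in ectoderm, against 1739 CPM with neither, and 1925 CPM in hPSC, against 2086 CPM with neither. H2AX stood further apart from the sum. It had 89.2 CPM in ectoderm cells with both UMIs, 72.8 CPM with PCNA only and 103 CPM with TOP2A only, against 70.3 CPM with neither. In hPSC it had 94.5, 71.2 and 106 CPM, against 66.0 CPM with neither, so the TOP2A-only ratios were 0.55 (0.48 to 0.63) in ectoderm and 0.69 (0.61 to 0.77) in hPSC.

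H1-10 differed less between classes, with 309 CPM in ectoderm cells with both UMIs, 296 CPM with PCNA only and 314 CPM with TOP2A only, against 281 CPM with neither. In hPSC it had 152, 142 and 160.5 CPM, against 146 CPM with neither. The TOP2A-only ratio was 0.16 (0.12 to 0.20) in ectoderm and 0.13 (0.07 to 0.19) in hPSC. By the 2-fold rule 0 members differed in any class of either library. Over all genes at 5 CPM or more, 0.00956% in ectoderm and 0.115% in hPSC were higher in cells with both UMIs, and 0% and 0.0192% lower. In TOP2A-only cells 0.0771% in ectoderm and 0.376% in hPSC were higher and 0% lower, and in PCNA-only cells 0% were higher or lower.

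**Figure D5:**
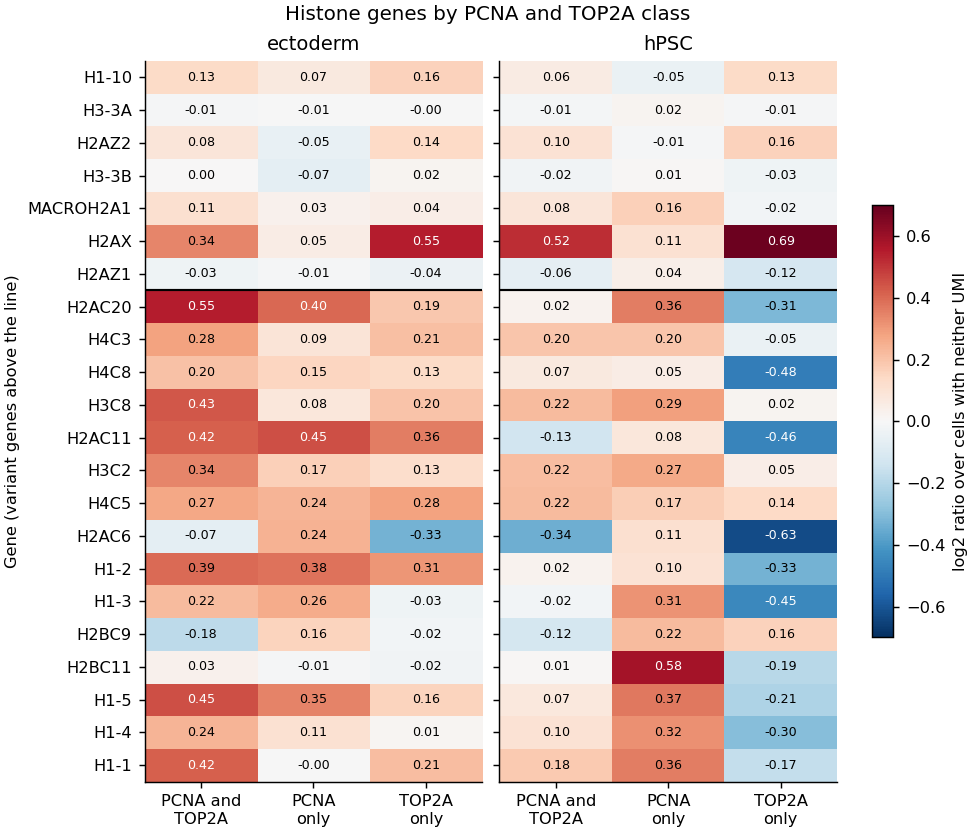
Log2 ratio of each class over cells with neither UMI for 22 of the 23 members at 5 CPM or more, in ectoderm (left) and hPSC (right), with the value in each box. The H2AX row is the highest in the TOP2A-only columns (0.55 and 0.69), and most replication-linked genes are above 0 in ectoderm and below 0 in hPSC in that column.

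The difference in H1-10 between the libraries was of similar size within each class. In the 4 classes, its log2 ratio of ectoderm over hPSC was 1.02 (both), 1.06 (PCNA only), 0.97 (TOP2A only) and 0.94 (neither). For the variant sum it was 0.26, 0.19, 0.28 and 0.24. The 65 replication-linked genes gave 0.15, -0.08, 0.31 and 0.01, so the sum was highest in ectoderm relative to hPSC in cells with TOP2A only, and lower in ectoderm in cells with PCNA only. This order depended on the classes: with at least 2 thinned UMIs the ratios were 0.76, -0.03, 0.43 and 0.05, highest in cells with both. The 5 H1 genes gave -0.20, -0.50, -0.04 (-0.11 to 0.02) and -0.47, and H4C3 gave 0.35, 0.16, 0.52 and 0.27. Within TOP2A-only cells the H1 genes did not all go the same way. There H1-2 gave 0.17 (0.02 to 0.32) and H1-3 gave 0.05 (-0.06 to 0.15). H1-1 gave -0.47, H1-4 gave -0.24 and H1-5 gave -0.09 (-0.23 to 0.05).

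Using lists of other S phase and of other G2 and M phase genes, each cut at its median, widened the spread. In ectoderm the replication-linked sum was 714 CPM in cells high in both lists, 764 CPM in cells high in S phase genes only and 588 CPM in cells high in G2 and M phase genes only, against 513 CPM in cells high in neither. In hPSC it was 561, 893 and 415 CPM, against 572 CPM in cells high in neither. These classes took in all kept cells, also those too shallow for the thinning, and they differed in depth. Median totals were 5474 UMIs in ectoderm cells high in both lists and 3511 in those high in neither. In hPSC they were 5398.5 and 4143.5 UMIs, and the part of depth was not tested. Cell by cell, the correlations of the replication-linked share with the PCNA or TOP2A share were weak. Pearson's r was 0.058 with PCNA and 0.052 with TOP2A over 15164 ectoderm cells, and 0.093 and -0.058 over 14743 hPSC cells. The thinned cells held a mean of 1.58 replication-linked UMIs in ectoderm and 1.46 in hPSC, and in counts this sparse such values are no finding.

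Genes that process histone mRNA and handle histones had, as lists, median log2 ratios near the -0.02 of all genes at 5 CPM or more. Beside the counts that follow, 3.96% of all genes at 5 CPM or more were at least 2-fold higher in ectoderm and 4.85% at least 2-fold lower. At these shares, lists this short would hold few such genes, so counts of 0 do not set them apart. Of 20 genes for histone mRNA processing, 19 were at 5 CPM or more, 0 were higher and 0 lower, and the median log2 ratio was -0.02. The lowest was LSM10, a subunit of the U7 small nuclear RNP, with 54.8 CPM in ectoderm and 88.0 CPM in hPSC (-0.68). LSM11, its partner in that RNP, had 7.32 CPM in ectoderm and 5.49 CPM in hPSC (0.42). SNRPB, a core Sm gene, was at -0.37, the cleavage factor gene CSTF2 at -0.23, the histone transcription coactivator gene NPAT at 0.26, and the exonuclease gene XRN1 at 0.48.

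Of 27 genes for histone chaperones and loaders, 27 were measured, 0 were higher and 0 lower, with a median of 0.00. ASF1B, a chaperone of new H3 and H4 in dividing cells, came nearest to the limit, with 16.8 CPM in ectoderm and 33.5 CPM in hPSC (-0.997, -1.09 to -0.91). DAXX, the chaperone that places the H3 replacement form in heterochromatin, had 43.5 CPM in ectoderm and 67.3 CPM in hPSC (-0.63). CHAF1A, the large subunit of the chromatin assembly factor that works behind the fork, had 48.1 CPM in ectoderm and 68.6 CPM in hPSC (-0.51). At the other end stood RBBP4, a histone-binding subunit of that factor, with 261 CPM in ectoderm and 186 CPM in hPSC (0.49). MMS22L and OIP5 followed at 0.28 and 0.27.

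Of 13 genes for the loading and removal of H2A.Z, 12 were measured, 0 were higher and 0 lower, with a median of 0.04. RUVBL1, an ATPase of the loading complexes, had 114 CPM in ectoderm and 181 CPM in hPSC (-0.67). DMAP1 at 0.45, EP400 at 0.44 and TRRAP at 0.42 were the highest, and ZNHIT1 at -0.25 and RUVBL2 at -0.23 were the next lowest. Of 9 genes of damage signalling around H2AX, a list that counts H2AX itself, 0 were higher and 0 lower, with a median of 0.05. MDC1, the reader of phosphorylated H2AX, was the highest with 24.3 CPM in ectoderm and 16.4 CPM in hPSC (0.57), ahead of ATM at 0.34 and PRKDC at 0.27. The ubiquitin ligase gene RNF168 was the lowest at -0.54, with RNF8 at -0.29 and TP53BP1 at -0.27.

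Of 15 other histone genes that the rule did not take in, 4 were at 5 CPM or more, of which 0 were higher and 1 lower in ectoderm. The lower one was H2AJ, an H2A form, with 44.0 CPM in ectoderm and 94.0 CPM in hPSC (-1.09, -1.15 to -1.04). CENPA, the H3 form of centromeres, had 65.1 CPM in ectoderm and 92.7 CPM in hPSC (-0.51). MACROH2A2 had 33.2 CPM in ectoderm and 23.0 CPM in hPSC (0.53), in the same direction as MACROH2A1. H2AW had 18.6 CPM in ectoderm and 21.3 CPM in hPSC (-0.19).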

How the data were processed

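For both groups the authors deposited a matrix of raw UMI counts, genes by cell barcodes. The submitters' processing notes name STARsolo, STAR and GRCh38, with tool versions, gene annotation, use of strand and handling of multimapping reads not given in the sources used here. Amplicon tables deposited by the authors list single reads with the guide matched to each, and served only to assign guides (exactly 1 guide with at least 20 UMIs; 3686 ectoderm and 2915 hPSC cells). The ectoderm table held 4340737 reads and that of hPSC 1048575 reads, which with its header fills a spreadsheet, so the hPSC table may be part of a longer one and the hPSC guide assignments incomplete. Minimums of 1000 UMIs and 500 genes and a maximum of 20% mitochondrial UMIs per cell removed 0 ectoderm and 7 hPSC barcodes. No doublet caller was run.

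Counts were summed over cells, as CPM, and compared as log2 ratios with exact conditional binomial intervals; levels have exact Poisson intervals. With 1 library per group no test and no p-value was possible. Cell classes used thinned counts (2500 UMIs, seed 1), and levels then used all UMIs of those cells. The computation was tested on simulated data. TMM factors came from edgeR 4.0.16. Named genes are all members at 5 CPM or more (1 of them is part of counts and sums but is not reported here by itself), up to 3 genes from each end of each pathway list, and PCNA and TOP2A. Members and lists were chosen with earlier results of these data known. The 5 CPM minimum in the class comparison, the split by number of marker UMIs, the split by chromosome, the sequence descriptions, the sum without H4C3, the choice of promoters, the guide targets and H2AC21 were chosen after the values were seen. Annotation was matched by Ensembl ID to GENCODE v29 for 74 of 76 members, and the authors' release may differ.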

Additional observations from a re-analysis of the deposited data

Results flagged for a closer look

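In cells with a TOP2A UMI only, set over cells with neither UMI, several log2 ratios were above 0 in ectoderm and below 0 in hPSC. Whether ectoderm and hPSC truly differ in these ratios was not tested, since each has 1 library. The cells with neither UMI also differed in marker level, with TOP2A at 142.5 CPM for ectoderm but 105.7 CPM for hPSC. The part of that difference in the ratios was not tested. The sum of the replication-linked genes gave 0.15 in ectoderm and -0.15 in hPSC. This contrast depended on the processing: the pair was 0.484 in ectoderm and 0.225 in hPSC with classes on all UMIs, 0.282 in ectoderm and -0.036 in hPSC with per-cell means, and 0.020 in ectoderm and -0.370 in hPSC with at least 2 thinned UMIs. Without H4C3 it gave 0.062 in ectoderm and -0.26 in hPSC, and the H4 genes gave 0.20 in ectoderm and -0.054 in hPSC. The H1 genes gave 0.088 in ectoderm and -0.33 in hPSC, among them H1-2 with 0.31 in ectoderm and -0.33 in hPSC and H1-5 with 0.16 in ectoderm and -0.21 in hPSC. H2AC11 gave 0.36 in ectoderm and -0.46 in hPSC, and H4C3 gave 0.21 in ectoderm and -0.046 in hPSC. Smaller pairs were the variant sum, with 0.016 in ectoderm and -0.030 in hPSC, and H3-3B, with 0.017 in ectoderm and -0.030 in hPSC. In cells with a PCNA UMI only, the variant sum gave -0.021 in ectoderm and 0.025 in hPSC.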

How the results depend on the processing

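No paired analysis was possible because each group has 1 library and the replicate numbers were given in accession order. The count of members at least 2-fold higher in ectoderm was 1 in place of 0 with the mean of per-cell CPM, without mitochondrial and ribosomal protein genes, with TMM scaling, with centring on the median gene (H1-10 in each) and in non-targeting cells. It was 2 with no CPM minimum, where 1 member was lower, and 2 at 1.5-fold. The log2 ratio of the replication-linked sum was 0.134 without mitochondrial and ribosomal protein genes, 0.142 with TMM, 0.133 with centring and 0.131 in non-targeting cells, and it turned to -0.17 without H4C3. The variant sum kept its direction, at 0.238 without the 5% of cells with the most UMIs, 0.232 with per-cell means, 0.285 without mitochondrial and ribosomal protein genes, 0.294 with TMM, 0.284 with centring, 0.335 in non-targeting cells and 0.243 with the 4 classes weighted equally.

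The class ratios of the replication-linked sum over neither moved most. With classes on all UMIs they were 0.557 (both), 0.398 (PCNA only) and 0.484 (TOP2A only) in ectoderm and 0.494, 0.567 and 0.225 in hPSC, so that TOP2A only in hPSC turned positive; here deeper cells fall into the marker classes by construction. Thinning to 1500 UMIs gave 0.176 (both) and 0.116 (TOP2A only) in ectoderm and -0.034 and -0.207 in hPSC, and a second thinning seed gave 0.214 for both in ectoderm. At least 2 thinned UMIs gave 0.287 (PCNA only) and 0.020 (TOP2A only) in ectoderm and -0.427 (both), 0.360 (PCNA only) and -0.370 (TOP2A only) in hPSC. Other S phase and G2 and M phase genes as markers gave 0.477, 0.574 and 0.196 in ectoderm and -0.029, 0.641 and -0.465 in hPSC (both, S only, G2 and M only). Per-cell means gave 0.416, 0.228 and 0.282 in ectoderm and 0.247, 0.275 and -0.036 in hPSC. Without H4C3 the ratios were 0.199 (PCNA only) and 0.062 (TOP2A only) in ectoderm and 0.049 (both) and -0.258 (TOP2A only) in hPSC. Apart from class building on all UMIs, the cause of these shifts was not tested.

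The ratio of ectoderm over hPSC within classes was 0.084 (both), -0.147 (PCNA only) and 0.280 (TOP2A only) with classes on all UMIs, and 0.763, -0.028, 0.434 and 0.045 (neither) with at least 2 thinned UMIs. The classes with at least 2 UMIs in the comparison between libraries and the sums without H4C3 were chosen after seeing the data. For the 23 members at 5 CPM or more, 141 of 183 alternative values moved by less than the counting interval and 42 by more. The sign differed in 12, all for genes with a ratio near 0 (H2AC11, H3C8, H4C5 and H2AX) or, in the few non-targeting cells, also for H2AC20 and H2AC6. Pathway counts did not change. Genes under 5 CPM and the guide targets are limited by depth, and 1 library per group gives no measure of the spread between cultures.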

Other observations

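Guides against a histone gene or against genes that handle histones were present in few cells, and these targets were picked after the guide names were seen. In ectoderm, 45 cells held a guide against HIST1H1T, the older name of H1-6, of which 31 held the same guide. No H1-6 UMI was counted in them or in the 159 non-targeting ectoderm cells, so the level of the target gives no check of the knockout. The replication-linked genes summed to 662 CPM in these 45 cells, set against 701 CPM in the 159 cells with non-targeting guides, with a log2 ratio of -0.083 (-0.32 to 0.15). The variant genes summed to 6975 CPM in the guide cells and 7013 CPM in the non-targeting cells.

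CPSF2 and CPSF3 encode subunits of the complex that cuts histone mRNA. In 13 ectoderm cells with a CPSF2 guide the replication-linked genes summed to 768 CPM, a log2 ratio of 0.13 over the same 701 CPM (-0.32 to 0.55), and CPSF2 itself had 5 UMIs, where the non-targeting level would give 5.14, so its level gives no sign of a knockout. In 15 cells with a CPSF3 guide the sum was 704 CPM, against 701 CPM (0.01, -0.43 to 0.41), and CPSF3 had 0 UMIs, where the non-targeting level would give 3.48. In 81 cells with a guide against MDC1, the reader of phosphorylated H2AX, the sum was 684 CPM, against 701 CPM (-0.04, -0.22 to 0.15), and MDC1 had 9 UMIs, where the non-targeting level would give 17.3. In 8 hPSC cells with a guide against SSRP1, a histone chaperone subunit, the sum was 721 CPM, and the 212 non-targeting hPSC cells had 640 CPM (0.17, -0.32 to 0.62). SSRP1 itself had 9 UMIs in the 8 cells, where the non-targeting level would give 13.3. The variant genes summed to 6454 CPM in them and 5558 CPM in the non-targeting hPSC cells (0.22, 0.06 to 0.37), an interval above 0 that covers counting error only. All these intervals of the replication-linked sum hold 0, and at 8 to 81 cells differences within them were not detectable. The log2 ratio of the target's own RNA was -0.94 (-2.19 to 0.16) for MDC1 and -0.56 (-1.71 to 0.38) for SSRP1. For CPSF3 the upper bound was 0.14, so none of these counts shows a loss of the target's RNA.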
